A study of Mus musculus with 4 samples.

Results

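Proliferins are secreted glycoproteins of the prolactin family, encoded in the mouse by a small group of related genes named Prl2c. All genes whose array name begins with Prl2c were taken, 3 of 50090 gene names, read by 6 of 61307 probes (1 for Prl2c1, 3 for Prl2c3 and 2 for Prl2c5). The group was chosen by measured values, the low signal of Prl2c3 and Prl2c5 in carcinogen-exposed cells, so the difference between exposed and control cells is given as a description, without a test. All 6 probes were well above background on both control arrays, by the scanner's flag, and 5 of the 6 were below that mark on both arrays of exposed cells. The same 6 probes also differed widely between the 2 control arrays.

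Proliferin was first found as a message that serum growth factors raise in quiescent mouse fibroblasts, and was also named mitogen-regulated protein. In pregnancy it is made by trophoblast giant cells of the placenta, and the secreted protein stimulates endothelial cells and new vessel growth. It binds the cation-independent mannose 6-phosphate receptor, which is also the receptor that clears insulin-like growth factor 2. Its promoter is a textbook target of the transcription factor AP-1, and phorbol esters are known to raise its message in C3H10T1/2 cells, the line used here.

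RNA came from C3H10T1/2, an immortalised mouse embryo fibroblast line that stops dividing at confluence and is used to score chemical transformation. The 3MC+TPA group received 2.5 µg/ml of the tumour initiator 3-methylcholanthrene (3MC), a polycyclic aromatic hydrocarbon, for 2 days. After 4 days in normal medium it received the tumour promoter TPA, a phorbol ester, at 100 ng/ml over 2 weeks, and then grew for 4 weeks without TPA. The control group was the same line cultured for 6 weeks, with no agent named in the labels. Each group has 2 arrays, read in 1 colour. The labels describe foci scored in stained sister flasks and do not say that foci were picked for RNA, so the arrays read whole cultures of a line grown on plastic. Separate cultures behind the arrays of a group are not stated anywhere, and p-values therefore speak for the spread of these arrays alone, which may be technical.

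Of 61657 probe spots, 32222 and 32512 passed the scanner's background flag on the 3MC+TPA arrays, against 32125 and 32415 on the control arrays. Values below are the log2 processed signal relative to each array's 75th percentile. Between the arrays of a group the SD of the difference per feature was 0.51 for 3MC+TPA and 0.44 for control (24919 features). The fibroblast label was met: 14 of 14 fibroblast markers, among them Col1a1, Col1a2 and Vim, were measured on all 4 arrays. Of the 14, 1 rose and 5 fell (limma adjusted p under 0.05), where 7.28% of all features tested were called higher and 8.46% lower. At an unadjusted p under 0.05, 1 rose and 6 fell. The matrix genes Lum (13.5-fold), Dcn (4.14-fold) and Postn (4.02-fold) and the receptors Pdgfra (2.79-fold) and Pdgfrb (2.04-fold) were lower in 3MC+TPA cells (adjusted p between 0.0024 and 0.021). The surface marker Thy1 was 7.86-fold higher (adjusted p = 0.047), at 4.78 and 5.03 on the 3MC+TPA arrays, against 2.99 and 0.87 on the control arrays. Its call was also lost with the authors' values (limma adjusted p = 0.05), with no filter on dim probes (0.2) and with limma's trend and robust options (0.14). The calls of Thy1, Dcn and Postn were lost without either 3MC+TPA array. The summed linear level of the 14 was 1646 and 1700 on the 3MC+TPA arrays, against 2248 and 1980 on the control arrays. All 4 arrays lay on 1 slide, with the groups in adjacent positions, so position and group cannot be told apart.

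The probe sequences show how far these genes can be told from each other. The brightest Prl2c5 probe and the brightest Prl2c3 probe target the same stretch of message. Over 60 aligned columns they are identical in 52 (86.7%), with a longest shared run of 18 bases. Within the stretch that both probes cover, capitals mark the bases that differ or that the other lacks, and overhanging ends stay in lower case:
Prl2c5, probe 1: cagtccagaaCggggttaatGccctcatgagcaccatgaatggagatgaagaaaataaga
Prl2c3, probe 1: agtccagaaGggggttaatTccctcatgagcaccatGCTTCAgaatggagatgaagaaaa
The other 4 probes lie in different stretches and share no run longer than 7 bases with any other Prl2c probe. They are shown because they give separate readings of the same difference:
Prl2c5, probe 2: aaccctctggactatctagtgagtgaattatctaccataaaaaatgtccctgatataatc
Prl2c3, probe 2: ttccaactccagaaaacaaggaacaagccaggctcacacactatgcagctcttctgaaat
Prl2c3, probe 3: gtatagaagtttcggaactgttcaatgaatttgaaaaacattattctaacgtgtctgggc
Prl2c1: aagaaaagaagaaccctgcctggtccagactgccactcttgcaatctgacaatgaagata
Per the array's annotation, probes 1 and 3 of Prl2c3 also list transcripts of Prl2c2, the classical proliferin gene, which has no probe under its own name. All 3 Prl2c3 probes also list 1 transcript with no match in the gene table. Signal given here for Prl2c3 may therefore include Prl2c2 or another close relative. The Prl2c5 probes list Prl2c5 alone, although their close kin could still bind them.

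In the RefSeq gene table of assembly GRCm38.p6, Prl2c3, Prl2c2 and Prl2c5 lie on the same stretch of chromosome 13, with pseudogenes and non-coding genes between them, apart from the other 23 family genes of that chromosome. Prl2c1 lies among those 23, in the main prolactin cluster. Promoters are printed for Prl2c3 and Prl2c5, the pair not measurable in exposed cells, as the 250 bases before the start used in the RefSeq promoter set (build GRCm38.p6). That start lies a few bases inside the gene's own record, so the window's last bases fall within it. Both strands were searched for the core AP-1 motif TGANTCA. They were also searched for the TATA box letters TATATAA. Matches are in capitals and do not overlap each other.
Prl2c3, chr13:12800080-12800329, minus strand: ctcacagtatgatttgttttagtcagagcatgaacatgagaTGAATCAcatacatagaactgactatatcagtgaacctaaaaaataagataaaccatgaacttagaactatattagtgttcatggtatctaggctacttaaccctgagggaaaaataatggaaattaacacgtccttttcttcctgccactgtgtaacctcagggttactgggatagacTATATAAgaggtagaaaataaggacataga
Prl2c5, chr13:13182466-13182715, plus strand: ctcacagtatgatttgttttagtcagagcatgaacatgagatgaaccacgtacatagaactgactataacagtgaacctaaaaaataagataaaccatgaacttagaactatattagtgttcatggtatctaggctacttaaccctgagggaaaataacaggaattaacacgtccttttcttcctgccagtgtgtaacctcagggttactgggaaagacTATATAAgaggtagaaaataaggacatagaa
The windows are identical in 241 of 250 aligned columns (96.4%). The AP-1 core stands once in the Prl2c3 window, its first base at position -209 from the start, and these letters are not in the Prl2c5 window. The TATA match begins at -30 in Prl2c3 and at -31 in Prl2c5. Among 32851 promoter windows of this length, 6.7% hold TGANTCA and 3.0% hold TATATAA. A match is a description of the letters and not a site in use.

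Prl2c5 and Prl2c3 each have only a lower bound for their difference, so they are not ranked. The brightest Prl2c5 probe read -5.76 and -5.95 on the 3MC+TPA arrays, neither well above background, against 4.27 and 6.87 on the control arrays, a control mean of 5.57 ± 1.84 (SD, n = 2). In processed signal these are 12.86 and 11.98 on the 3MC+TPA arrays, against 10307 and 68831 on the control arrays. The signal was therefore near the bottom of the scale in exposed cells and high in both control arrays. A probe not well above background has only a bound, so it was set, array by array, to the higher of its own value and the array's dimmest signal that passed the flag, -4.81 on 3MC+TPA array 1 and -4.79 on 3MC+TPA array 2. On that footing Prl2c5 was at least 1319-fold lower in 3MC+TPA cells, a log2 difference of -10.37. Against control array 1 alone the bound was 535.7-fold, and against control array 2 alone 3249-fold. The second Prl2c5 probe read -7.14 and -7.11 on the 3MC+TPA arrays, against 2.64 and 5.38 on the control arrays, which is at least 449-fold lower. In RNA of whole cultures, fewer cells that make a transcript and less of it per cell cannot be told apart.

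Prl2c3 gave the same picture on each of its 3 probes. The brightest read -6.09 and -6.98 on the 3MC+TPA arrays, against 3.89 and 6.61 on the control arrays, a control mean of 5.25 ± 1.92 (SD, n = 2). It was at least 1055-fold lower in 3MC+TPA cells, with a bound of 411.2-fold against control array 1 and 2709-fold against control array 2. The second probe read -6.89 and -5.96 on the 3MC+TPA arrays, against 2.33 and 5.11 on the control arrays, at least 366.7-fold lower. The dimmest probe read -6.99 and -6.99 on the 3MC+TPA arrays, against -1.55 and 1.75 on the control arrays, at least 29.8-fold lower. A dimmer probe can only give a smaller bound, because the floor is the same for all. All 6 Prl2c probes had both 3MC+TPA arrays below both control arrays. Of all 24977 features tested, 15.7% passed a limma adjusted p of 0.05, 7.28% higher and 8.46% lower in 3MC+TPA cells. With no scaling between arrays the median log2 change of all features moved to 0.34, and 79.1% of the calls were higher, against 46.3% with scaling.

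**Figure D1:**
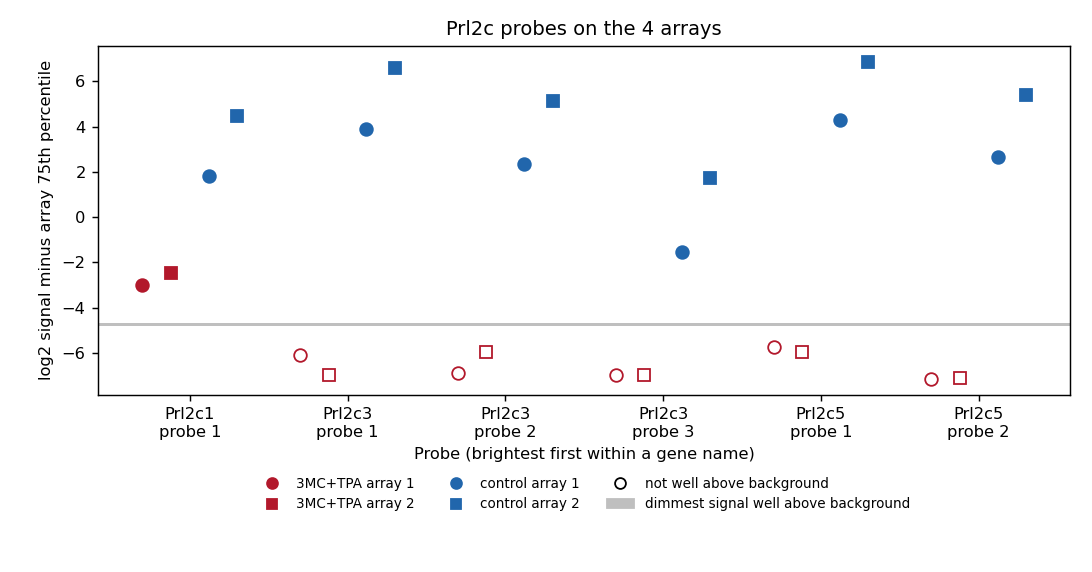
Log2 signal minus the array's 75th percentile (vertical) of the 6 Prl2c probes (horizontal) on the 2 3MC+TPA arrays and the 2 control arrays; open symbols are not well above background and the grey line marks the dimmest signals that are. Red symbols lie below blue ones for every probe, only Prl2c1 has filled red symbols, and control array 2 lies above control array 1 throughout.

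The unprocessed brightness of the 5 dim probes was set against the array's own 308 negative control spots. On 3MC+TPA array 1 the 5 probes had mean spot signals of 43.2 to 62.2, where negative controls had a median of 42.3 and a 95th percentile of 54.0. On 3MC+TPA array 2 they had 36.07 to 59.95, with a negative control median of 43.6 and 95th percentile of 57.5. On each array 2 of the 5 lay above that percentile, the brightest Prl2c5 probe on both and a different Prl2c3 probe on each. Prl2c3 and Prl2c5 messages in the exposed cells were thus at or near the level of spots that match no transcript, and how low they were is not measured. Whether the brightest Prl2c5 probe kept a faint signal of its own was not tested.

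Prl2c1 was the member that stayed measurable in the exposed cells. It read -3.0 and -2.47 on the 3MC+TPA arrays, against 1.81 and 4.46 on the control arrays. Means were -2.73 ± 0.38 in 3MC+TPA cells and 3.13 ± 1.87 in control cells (SD, n = 2 each), a 58.4-fold lower signal with no bound involved. Against control array 1 it was 23.4-fold lower and against control array 2 145.9-fold lower. Its reading shows a residual signal on both exposed arrays, well above the dimmest measurable values.

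Gm7040, which the array describes as a predicted gene similar to a proliferin, is no member by name and was added after its values were seen. In the gene table it lies beyond Prl2c5, before Gpr137b. It read -7.09 and -7.09 on the 3MC+TPA arrays, against -0.34 and 2.59 on the control arrays, at least 60.6-fold lower. Its probe shares a run of 19 bases with the second Prl2c3 probe, so binding of proliferin message to it cannot be told apart from a message of its own.

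The control arrays disagreed about proliferin more than about almost any other gene. Control array 2 exceeded control array 1 by 6.07-fold to 9.79-fold over the 6 probes. The gap was 2.60 (log2) for the brightest Prl2c5 probe, 2.72 for the brightest Prl2c3 probe and 2.64 for Prl2c1. Over the 23806 features measured on both control arrays the median gap was -0.03, with a 1st percentile of -0.96 and a 99th percentile of 1.17. Only 13 features had a gap of 2.60 or more, the 3 Prl2c genes included, and 13 had one as large in the other direction. The spread is thus common to probes in different stretches of the Prl2c messages and is not that of a single spot. Between the 3MC+TPA arrays, array 2 minus array 1 was -0.19 for Prl2c5 and -0.88 for Prl2c3, both below the measurable range, and 0.53 for Prl2c1.

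The features with such a gap were picked for a high control array 2, which itself raises the control mean, so nothing is read from their difference between groups. Besides the Prl2c genes and Gm7040 they include Akr1c18 (20-alpha-hydroxysteroid dehydrogenase), with a gap of 4.54 and signals of -4.74 and -6.26 on the 3MC+TPA arrays, against -3.56 and 0.98 on the control arrays. Ivl, which encodes involucrin of the cornified envelope, had a gap of 3.66, and S100a8, a calcium-binding protein of inflammation, one of 2.75. The annexin gene Anxa8 had a gap of 2.85 and signals of -1.63 and -2.21 on the 3MC+TPA arrays, against 0.91 and 3.76 on the control arrays. These genes were named after the gap was seen.

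**Figure D2:**
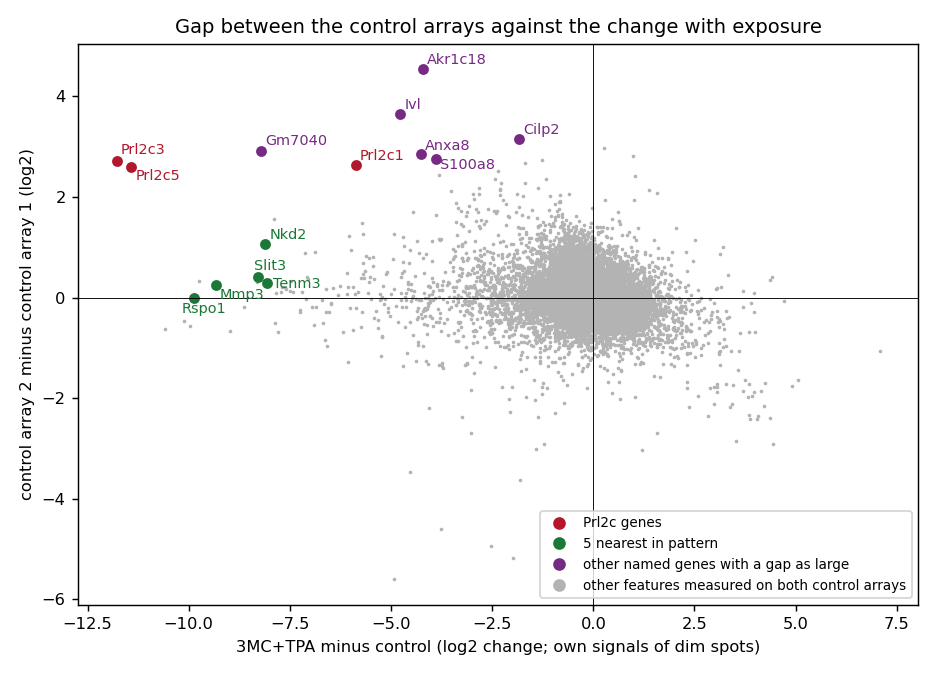
Control array 2 minus control array 1 (log2, vertical) against 3MC+TPA minus control (log2, horizontal, dim spots at their own signals) for the features measured on both control arrays, 1 point each. Prl2c1, Prl2c3 and Prl2c5 (red) lie between 2.60 and 2.72 on the vertical axis, far above the 99th percentile of 1.17, while the 5 genes nearest in pattern (green) lie between 0.00 and 1.06.

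The lists of genes around proliferin described next were chosen with earlier results of these data known, so their counts are descriptions and not independent evidence. The rest of the prolactin family was hardly measured in these fibroblasts. Of 24 family genes outside Prl2c, growth hormone included, 21 are on the array and 17 were well above background on none of the 4 arrays. Prl2a1, Prl5a1 and Prl7a1 reached that mark on 1 array each. Prolactin itself (Prl) read -7.01 and -7.06 on the 3MC+TPA arrays, against -5.66 and -5.73 on the control arrays, all below the mark. Prl7d1, which encodes proliferin-related protein, an inhibitor of vessel growth, read -7.04 and -7.06 on the 3MC+TPA arrays, against -6.85 and -6.84 on the control arrays, and was likewise not measurable. Only Prl3b1, placental lactogen II, was bright enough to test. It read -2.31 and -2.04 on the 3MC+TPA arrays, against -1.88 and -2.02 on the control arrays, a log2 change of -0.22 ± 0.18 (SE; limma adjusted p = 0.42). Without scaling between arrays its sign turned, to 0.13. Thus 0 of the 1 family gene that limma could test passed, also 0 at an unadjusted p under 0.05, where 15.7% of all features passed.

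Trophoblast genes, whose cells make proliferin in the placenta, were mostly absent too. Of 16 trophoblast markers 13 were well above background on no array, among them the defining genes Hand1, Tpbpa, Cdx2, Elf5 and Gcm1. Summed over the list, the linear level relative to the 75th percentile was 0.368 and 0.276 on the 3MC+TPA arrays, against 0.296 and 0.278 on the control arrays. Of the 2 markers tested with limma 0 passed, where 15.7% of all features passed (also 0 at an unadjusted p under 0.05). The larger change was that of Esx1, at -0.83 (log2; adjusted p = 0.36). Of 6 endothelial markers 4 were measurable on no array, among them Pecam1 and Cdh5; Tek was at least 1.76-fold higher in 3MC+TPA cells (adjusted p = 0.009), a call lost with normexp background correction or without either 3MC+TPA array. The list summed to 0.136 and 0.185 on the 3MC+TPA arrays, against 0.148 and 0.139 on the control arrays. The leukocyte markers Ptprc, Adgre1 and Itgam were measurable on no array, and 0 of 5 members tested with limma passed (3 at an unadjusted p under 0.05). The largest change was that of Csf1r, a macrophage receptor, at -1.67 (log2; adjusted p = 0.15), which passed with normexp background correction (0.044). The list had sums of 3.96 and 4.83 on the 3MC+TPA arrays, against 3.63 and 4.91 on the control arrays. Of 8 epithelial markers Cdh1, Krt18 and Cldn4 were measurable on no array, while Krt7, Krt8, Krt5 and Krt14 were measured on all 4. Krt7 rose 4.11-fold (adjusted p = 0.043, and 0.16 without either 3MC+TPA array), and the list summed to 0.619 and 0.627 on the 3MC+TPA arrays, against 0.329 and 0.438 on the control arrays. The genes tested in each of these lists are too few to set their calls apart from the share of all features. The part of these markers in the proliferin difference was not tested.

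The neighbours of the family on chromosome 13 are too few on the array to set their calls apart from the 15.7% of all features. Of the 20 genes next to the outermost family genes in the table, 8 are on the array and 6 could be tested with limma, and 0 passed at an adjusted p of 0.05 (1 at an unadjusted p under 0.05). These 6 all lie before Prl2c3 on the chromosome, and no gene beyond Prl5a1 at the other end could be tested. The largest change was that of the pseudogene Gm5445, at 6.16 and 6.30 on the 3MC+TPA arrays, against 6.71 and 6.63 on the control arrays (log2 change -0.44 ± 0.15, SE; limma adjusted p = 0.12). A second window, set after the values were seen, held 30 genes around Prl2c3 to Prl2c5. It repeats the 6 tested genes above and adds Gm7040, Gpr137b and Nid1. Of the 9 tested in it 1 passed, the proliferin-like Gm7040. Gpr137b, a lysosomal membrane protein gene just beyond it, read 2.39 and 2.35 on the 3MC+TPA arrays, against 2.77 and 3.47 on the control arrays (log2 change -0.75 ± 0.26, adjusted p = 0.12). Nid1, which encodes the basement membrane protein nidogen, had a log2 change of -0.34 (adjusted p = 0.45). Whether these changes differ from that of the Prl2c genes was not tested.

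The receptor that proliferin binds differed by less than the spread between arrays. Igf2r read 4.20 and 3.91 on the 3MC+TPA arrays, against 4.18 and 3.84 on the control arrays, a log2 change of 0.04 ± 0.20 (SE; limma adjusted p = 0.91). The sign of so small a change turned when control array 2 (-0.13) or 3MC+TPA array 1 (-0.10) was left out. Igf2, the growth factor that shares this receptor, read -2.58 and -3.48 on the 3MC+TPA arrays, against 6.27 and 5.60 on the control arrays. It fell by 8.97 ± 0.38 on the log2 scale, 501-fold (adjusted p = 0.00052), and was the higher on control array 1, the opposite order to the Prl2c genes. Prlr, the prolactin receptor, was dim at -3.20 and -3.26 on the 3MC+TPA arrays, against -2.85 and -2.53 on the control arrays (log2 change -0.54 ± 0.18, adjusted p = 0.11).

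Of 20 receptor and signalling genes 19 were tested, 2 rose and 3 fell, with a median log2 change of -0.01, the same as that of all features (-0.01). Over all features 7.28% were called higher and 8.46% lower. Without scaling between arrays 5 of the list were called higher and 1 lower. Ptpn6, a tyrosine phosphatase that dampens cytokine receptor signalling, rose 5.05-fold, at -2.25 and -1.83 on the 3MC+TPA arrays, against -4.36 and -4.39 on the control arrays (adjusted p = 0.0033). Its control values lie near the floor, and its log2 change of 2.34 was 0.98 with normexp background correction and 1.26 as the median over probes. Igf1r, the insulin-like growth factor 1 receptor, rose 1.70-fold (adjusted p = 0.043). Jak2, the kinase bound to the prolactin receptor, fell to 1.39 and 1.03 on the 3MC+TPA arrays, against 2.41 and 3.16 on the control arrays, 2.98-fold lower (adjusted p = 0.028). Of the 2 Jak2 probes tested 1 was called lower. As the median over probes its log2 change of -1.58 was -1.25 and did not pass (adjusted p = 0.064). Stat5a, a target transcription factor of Jak2, was 1.71-fold lower (adjusted p = 0.045), and Socs1, an inhibitor of the pathway, 1.57-fold lower (adjusted p = 0.047). Leaving out control array 1 left 2 calls, and leaving out control array 2, 3MC+TPA array 1 or 3MC+TPA array 2 left 1.

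In the list of AP-1 genes and other transcription regulators, the genes that passed the test were higher in exposed cells. A tie of each listed gene to the proliferin promoter was not tested. Of 20 genes 19 were tested with limma, 4 rose and 0 fell (6 higher and 2 lower at an unadjusted p under 0.05), with a median log2 change of 0.46, where 7.28% of all features were called higher. With normexp background correction, with the filter on all 4 arrays and with limma's trend and robust options 1 regulator was called lower. Atf3, a stress-induced partner of Jun, rose 5.01-fold, at 3.24 and 3.30 on the 3MC+TPA arrays, against 0.68 and 1.20 on the control arrays (limma adjusted p = 0.0044). Batf3, another dimer partner of Jun, rose 3.40-fold (adjusted p = 0.0038), Ets1 rose 2.26-fold (0.012) and Junb rose 1.65-fold (0.035). Of the core AP-1 genes, Jun had a log2 change of -0.42 (adjusted p = 0.12) and Fos of 0.23 (0.66). Nr3c1, the glucocorticoid receptor, which acts on proliferin through a composite element with AP-1, had a log2 change of 0.34 (0.35). Without either 3MC+TPA array 2 of the 4 calls were left, and without scaling between arrays 9 genes were called higher.

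Fosl1 (Fra-1), an AP-1 subunit, was higher on control array 2, the same order as the Prl2c genes. It read -0.30 and 0.88 on the 3MC+TPA arrays, against 0.32 and 2.17 on the control arrays. The groups overlapped, and its log2 change of -0.96 ± 0.70 (SE) did not pass (limma adjusted p = 0.40). It is named after its values were seen. Of the 19 regulators tested 8, Fosl1 included, were higher on control array 2, and the median gap of the list was -0.08.

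Genes known for induction by serum or phorbol esters, the agents that raise proliferin, were a divided group. Of 25 such genes 24 were tested, 3 rose and 8 fell, with a median log2 change of -0.88, where 7.28% of all features were called higher and 8.46% lower. The matrix protease genes led the falls. Mmp13 (collagenase 3) read -6.47 and -6.49 on the 3MC+TPA arrays, against 2.80 and 3.05 on the control arrays, at least 211.5-fold lower (limma adjusted p = 0.0002). Mmp3 (stromelysin 1), a classical phorbol ester target through AP-1, was 644-fold lower (adjusted p = 0.00026). Spp1 (osteopontin) read 1.54 and 0.68 on the 3MC+TPA arrays, against 7.54 and 8.44 on the control arrays, 118-fold lower (adjusted p = 0.0013). Il1rl1, which encodes the interleukin 33 receptor ST2 and was also found as a serum-induced message, read -1.84 and -1.97 on the 3MC+TPA arrays, against 1.16 and 2.80 on the control arrays, 14.7-fold lower (adjusted p = 0.012). Lcn2, Timp1, Plau and Ccl2 also fell. Among those that rose, Tnc, which encodes the matrix protein tenascin C, rose by 1.38 (log2; adjusted p = 0.012). Plaur, the receptor of the urokinase that Plau encodes, rose by 1.25 (adjusted p = 0.032). Ctsl, the major excreted protein of transformed fibroblasts, read 7.63 and 7.49 on the 3MC+TPA arrays, against 7.49 and 7.38 on the control arrays (log2 change 0.12 ± 0.16, adjusted p = 0.63). On the control arrays 22 of the 24 were higher on array 2, with a median gap of 0.52. Leaving out 3MC+TPA array 1 left 3 calls and leaving out 3MC+TPA array 2 left 5, all of them lower.

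Among other secreted regulators of vessel growth, most of those that changed were lower too. Of 24 angiogenic factors and inhibitors, all tested, 1 rose and 12 fell, with a median log2 change of -0.79, where 7.28% of all features were called higher and 8.46% lower. Hgf, hepatocyte growth factor, fell to -2.20 and -2.02 on the 3MC+TPA arrays, against 3.19 and 3.60 on the control arrays, 45.5-fold lower (limma adjusted p = 0.00035). Cxcl12, a chemokine of stromal cells, fell 23.0-fold (adjusted p = 0.00066), and Fgf7, keratinocyte growth factor, fell 8.53-fold (0.0064). The inhibitor Thbs2 fell 4.78-fold (0.0019) and Vegfd 4.35-fold (0.0039), so members of both kinds moved down. Fgf1 was the gene that rose, at -2.82 and -2.69 on the 3MC+TPA arrays, against -6.93 and -6.75 on the control arrays, at least 3.93-fold higher (adjusted p = 0.00042). Vegfa, the main endothelial growth factor, had a log2 change of 0.18 ± 0.15 (adjusted p = 0.46). The control arrays did not differ in one direction for this list, with a median gap of -0.06 and 11 of 24 genes higher on array 2. Without 3MC+TPA array 1 there were 8 calls and without 3MC+TPA array 2 there were 6.

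**Figure D3:**
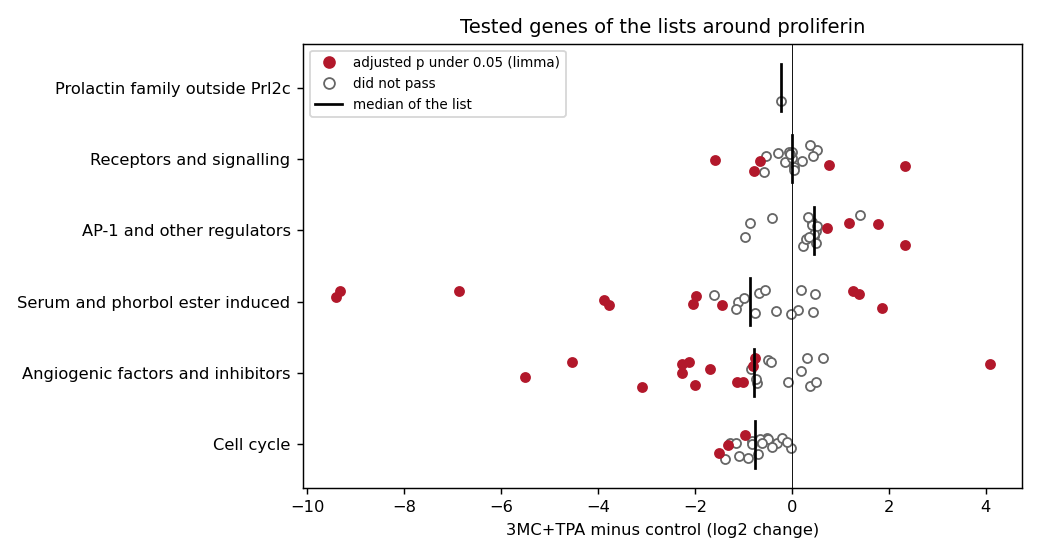
Log2 change, 3MC+TPA minus control (horizontal), of the tested genes of 6 lists around proliferin, 1 point per gene; filled points passed a limma adjusted p of 0.05 and the black bar is the median of the list. The medians are -0.22 for the single testable prolactin family gene, -0.01 for receptors and signalling, 0.46 for AP-1 and other regulators, -0.88 for serum and phorbol ester induced genes, -0.79 for angiogenic factors and -0.77 for cell cycle genes.

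The cell cycle genes differed between the control arrays in the same direction as proliferin. All 20 were higher on control array 2 than on control array 1, with a median gap of 0.86 where all features had -0.03. Summed over the list, the linear level relative to the 75th percentile was 121 and 118.5 on the 3MC+TPA arrays, against 154 and 263 on the control arrays. Control array 2 lay above both 3MC+TPA arrays for 20 of the 20 genes and control array 1 for 13. Between the groups limma called 0 genes higher and 3 lower (0 higher and 9 lower at an unadjusted p under 0.05), with a median log2 change of -0.77. Over all features 15.7% were called in either direction and 8.46% lower, and 3 of 20 is near the share called in either direction. The 3 genes act in replication licensing: Cdc6 fell 2.85-fold (limma adjusted p = 0.031), Mcm4 2.51-fold (0.035) and Mcm6 1.94-fold (0.039). The count depended on single arrays, with 14 genes lower without control array 1 and 0 called without control array 2. It was also 0 without either 3MC+TPA array. Mki67, the proliferation marker Ki-67, read 3.64 and 3.72 on the 3MC+TPA arrays, against 3.54 and 4.43 on the control arrays (adjusted p = 0.54). The labels give exponential growth for all cultures, and the part of growth state in the proliferin gap was not tested.

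**Figure D4:**
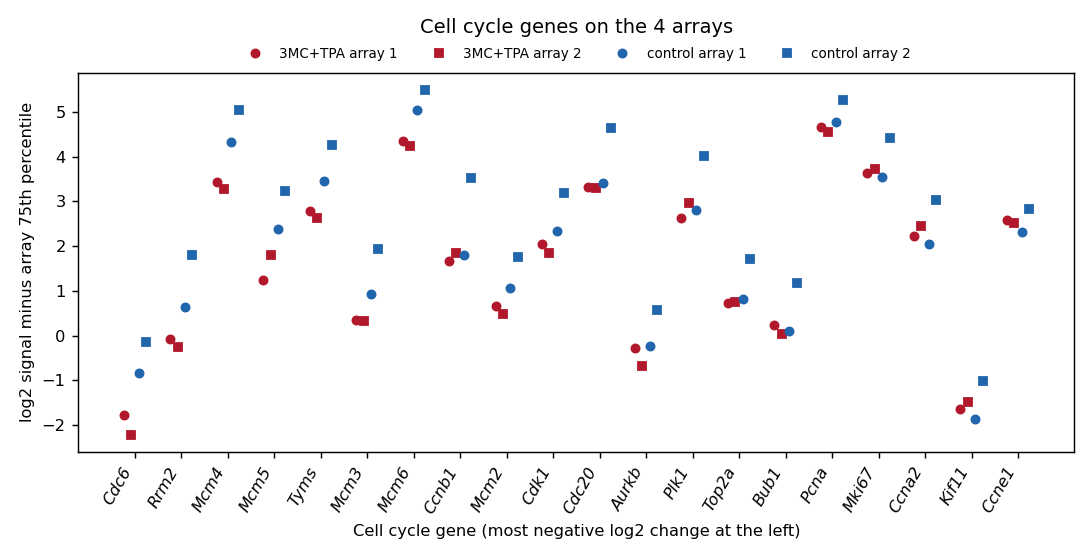
Log2 signal minus the array's 75th percentile (vertical) of the 20 cell cycle genes (horizontal) on the 2 3MC+TPA arrays and the 2 control arrays. Control array 2 is the highest of the 4 for every gene, and control array 1 lies above both 3MC+TPA arrays for 13 of the 20.

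The genes nearest to Prl2c in pattern were sought by Euclidean distance over the 4 arrays, after flooring dim values and centring each gene, against the mean profile of the 3 Prl2c genes. The Prl2c genes themselves lay 1.29 (Prl2c3), 1.61 (Prl2c5) and 2.90 (Prl2c1) from that mean, which gives the scale of the distances below. Nkd2, an inhibitor of Wnt signalling that also lies on chromosome 13, was nearest at 1.59. It read -5.21 and -5.32 on the 3MC+TPA arrays, against 2.31 and 3.37 on the control arrays, at least 199-fold lower. Next came Tenm3, a teneurin of the cell surface, at 1.85, Mmp3 at 1.91, Slit3, a secreted guidance ligand, at 1.93, and Rspo1, a secreted Wnt agonist, at 1.96. Tenm3 was 268-fold lower in 3MC+TPA cells, Slit3 at least 205-fold lower and Rspo1 at least 296-fold lower; the search itself picks genes that are low in exposed cells, so these folds are a description, without a test. The likeness is to the size of the mean difference of the 3 Prl2c genes. Folds of the 5, bounds included, ran from 199 to 644. Prl2c1 was 58.4-fold lower, and Prl2c3 and Prl2c5 at least 1055-fold and 1319-fold. The gap between the control arrays was 1.06 for Nkd2 and between 0.00 and 0.40 for the other 4, against 2.60 to 2.72 for the Prl2c genes.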

How the data were processed

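Per the labels, RNA of C3H10T1/2 cells was labelled with Cy3 and read on 4 arrays, 2 per group, with groups taken from the sample titles. Spot intensity values come from Agilent Feature Extraction 10.7.3.1, per the file headers: a processed signal, background-subtracted and detrended, with a substitute for dim spots, and unprocessed mean and background signals. The series' design text names GeneSpring GX 11.5. The deposited table holds log2 values made by the authors, which equal the log2 processed signal relative to each array's 75th percentile within 0.01 for at least 61236 of 61307 probes. Genes in it are not centred and a higher value means a brighter spot. Its columns have medians of -4.39 and -4.35 for 3MC+TPA and -4.29 and -4.31 for control.

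Values here are that log2 intensity, computed from the deposited scanner files without 1319 control spots per array and without outlier spots (31 and 68 on 3MC+TPA, 42 and 20 on control arrays); 0 spots were saturated. Array numbers limit the precision. A feature is a gene name read by its brightest probe, tested when well above background on both arrays of a group (24977 of 50090). Groups were compared with limma 3.58.1 in R 4.3.3 (lmFit, eBayes, 2-sided), with Benjamini-Hochberg adjustment over these features and a threshold of 0.05, and the fit was tested on simulated data. Symbols were updated through RefSeq accessions (28136 of 61307 probes matched; GRCm38.p6). The array grid is on another build, so that table gave names and gene order only. Promoters are from RefSeq and were found for Prl2c3 and Prl2c5. Sequences were aligned with Biopython 1.88.

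The members and lists were chosen with earlier results of these data known. The genes named are all Prl2c features, Igf2r, Prlr, Prl, Igf2 and Ctsl, per list the 4 largest changes among called members, the largest change of a list with none called, and the 5 features nearest in pattern; others were named after their values were seen. Alternatives were the background correction, scaling, the filter, the probe rule, the authors' values, each array left out, the replicate block, and the t-test of the series' text. A called member of a list is not reported here.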

Additional observations from a re-analysis of the deposited data

How the results depend on the processing

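The Prl2c1 difference (11 of 11 alternatives) and the control gaps of all 3 genes (6 of 6 each) moved by less than 1 SD. That SD includes the gap between the control arrays, so it could not flag the fits that leave out a control array. In these the Prl2c1 difference of -5.87 became -7.19 without control array 1 and -4.55 without control array 2. The Prl2c3 difference of -10.04 became -8.20 with normexp background correction, -11.78 with dim spots at their own signal and -8.52 as the median over probes, and that of Prl2c5 (-10.37) became -8.69 with normexp, so the bounds in the report hold for the values used there and not under normexp. Leaving out 1 array gave -7.19 to -4.55 for Prl2c1, -11.40 to -8.68 for Prl2c3 and -11.67 to -9.07 for Prl2c5. Of all features 3930 were called (8397 at an unadjusted p under 0.05). The count was 6725 without scaling (79.1% higher, against 46.3% scaled), 933 with no filter and 1110 to 3285 without 1 array, and the methods' t-test gave 5695 unadjusted and 23 after Benjamini-Hochberg. With no filter on dim probes the lists had 2 (prolactin family), 1 (receptors), 1 (regulators), 3 (serum and phorbol ester induced), 5 (angiogenic) and 0 (cell cycle) calls. Without scaling there were 9 regulators, 1 cell cycle gene and 1 flanking gene. Cell cycle calls were 7 with normexp, 6 when all 4 arrays had to be well above background and 8 with limma's trend and robust options, which also called 1 flanking gene. Receptors had 3 calls with the percentile over detected probes. Without 1 array the calls ranged over 0 to 0 for the family and the flanking genes, 1 to 2 for receptors, 2 to 4 for regulators, 3 to 13 for serum and phorbol ester genes, 6 to 11 for angiogenic genes and 0 to 14 for cell cycle genes. Of 510 values for 37 named genes 434 kept direction and side of the threshold, 68 lost the call, 4 gained it and 4 changed sign: Prl3b1 without scaling (0.13), Esx1 without 3MC+TPA array 2 (range without 1 array -1.71 to 0.05), and Igf2r without control array 2 or 3MC+TPA array 1 (range -0.13 to 0.21). The cause of these changes was not tested.

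Replicate numbers are shared by the groups, but same-numbered arrays did not deviate together when taken over all features tested (correlation 0.003). A single correlation of this kind cannot exclude a link that touches some genes only, so pairing is not settled. With the replicate number as a block 3459 features and 2 receptor genes were called, 3 regulators, 12 serum and phorbol ester genes, 10 angiogenic genes, 3 cell cycle genes and 0 family or flanking genes. Among named genes the block ended the calls of Stat5a (adjusted p = 0.075), Igf1r (0.059), Junb (0.064) and Mcm6 (0.057) and gave Csf1r a call (0.02).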
